A study of Mus musculus with 11 samples.

Results

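The 10 transcripts described here encode core proteins of the circadian clock: Arntl, Clock, Per1, Per2, Cry1, Cry2, Nr1d1, Nr1d2, Bhlhe40 and Bhlhe41. They were picked by symbol from a table of 52143 genes, and each symbol matched a single gene. No measured level enters that choice by symbol, but the list was drawn up with results of these libraries in view. Calls for the 10 genes are therefore given as a description of what a fit over the whole table returned. They are not independent evidence about the clock. The cells were RAW cells, an established mouse macrophage line, carrying either a control hairpin RNA (shC) or a hairpin RNA against Girdin (shGIV), also called GIV and encoded by Ccdc88a. Each line was sequenced untreated (0 h) and after 5 h in lipopolysaccharide (LPS) at 100 ng/ml. LPS is the bacterial cell wall component sensed by Toll-like receptor 4. The libraries used were 2 of control cells without LPS (replicates 1 and 3), 1 of control cells with LPS (replicate 2), 3 of depleted cells without LPS and 3 of depleted cells with LPS. Control replicate 2 without LPS is shown apart, and control replicate 3 with LPS is not analysed here. The labels do not say whether a hairpin line is a clone or a pool, or whether replicates are separate cultures, so p-values measure only the spread between these samples. They also give no hour of harvest or of medium change, so an effect of LPS and one of harvest hour cannot be told apart.

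The clock is a feedback loop of transcription. ARNTL (also called BMAL1) and CLOCK bind E-box sequences as a pair and switch on the Per and Cry genes, whose proteins return to repress the pair. A linked loop runs through the nuclear receptors NR1D1 and NR1D2 (REV-ERB alpha and beta), which repress Arntl, and BHLHE40 and BHLHE41 (DEC1 and DEC2) compete for E-boxes as further repressors. In macrophages the REV-ERB receptors are also known as repressors of inflammatory genes.

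To show what such elements look like beside these genes, stretches upstream of 4 members are printed from the RefSeq promoter table (GRCm38.p6), which held 8 of the 10 members. Each runs 5′ to 3′ on the minus strand and ends at the last base before the outermost start of the gene in RefSeq or GENCODE M21. Capitals mark CACGTG (the E-box), CACGTT or its complement AACGTG (an E-box variant), and AGGTCA (a core nuclear receptor site). The stretches are Bhlhe41 at chr6:145865559-145865670, Cry1 at chr10:85185065-85185304, Nr1d1 at chr11:98775378-98775627 and Nr1d2 at chr14:18239128-18239356. Bhlhe41 and Nr1d1 are shown because the largest difference between lines and the largest rise with LPS fell on them, Nr1d2 as the paralog that moved opposite to Nr1d1, and Cry1 as a Cry gene with an E-box.
Bhlhe41: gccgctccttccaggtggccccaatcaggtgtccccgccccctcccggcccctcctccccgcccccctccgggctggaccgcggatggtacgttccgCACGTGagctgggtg
Cry1: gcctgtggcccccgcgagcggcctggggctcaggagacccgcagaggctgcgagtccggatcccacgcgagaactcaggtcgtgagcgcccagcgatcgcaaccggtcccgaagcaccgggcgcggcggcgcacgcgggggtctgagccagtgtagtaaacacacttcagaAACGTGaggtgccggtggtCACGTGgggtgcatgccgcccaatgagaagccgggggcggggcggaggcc
Nr1d1: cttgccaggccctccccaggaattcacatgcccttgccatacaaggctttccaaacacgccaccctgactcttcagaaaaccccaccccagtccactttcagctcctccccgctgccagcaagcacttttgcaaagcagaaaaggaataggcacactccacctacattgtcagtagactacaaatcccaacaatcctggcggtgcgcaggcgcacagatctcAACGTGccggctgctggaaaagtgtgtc
Nr1d2: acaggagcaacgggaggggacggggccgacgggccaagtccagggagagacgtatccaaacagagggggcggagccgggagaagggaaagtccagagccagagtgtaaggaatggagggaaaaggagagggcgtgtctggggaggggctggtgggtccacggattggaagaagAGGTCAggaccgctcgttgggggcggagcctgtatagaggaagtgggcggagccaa
The Bhlhe41 stretch holds an E-box 15 to 10 bases before its end, and the Cry1 stretch holds one at 50 to 45 bases and an E-box variant at 69 to 64 bases. The Nr1d1 stretch has an E-box variant at 28 to 23 bases, and the Nr1d2 stretch has an AGGTCA at 56 to 51 bases. Over windows of 250 bases before to 50 after a start, read on both strands, CACGTG was in 3 of the 12 windows of the 8 members (of Bhlhe41, Cry1 and Per1), and 7.15% of all 32851 windows held it. CACGTT was in 3 of the 12 (of Cry1, Cry2 and Nr1d1) against 4.68% of all windows, and AGGTCA in 4 of the 12 (of Arntl, Clock, Nr1d2 and Per1) against 16.3%. The D-box TTATGTAA, read in the same way, was in none of the 12 windows of members and in 0.938% of all windows. CACGTG and CACGTT differ in their last letter, so both cannot match the same bases. A match describes the sequence and does not show binding.

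Levels are in TPM, transcripts counted per length and as parts of a fixed total, so the values do not keep the depth of a library and it is unknown here. Between 19795 and 21678 genes were above 0 in the 9 libraries. The cells carried the defining transcripts of macrophages, with Lyz2 at 7974 to 15913 TPM, Cd68 at 708 to 1452 TPM and Csf1r, a growth factor receptor, at 41.8 to 541 TPM. The summed level of 7 macrophage markers was 16883 to 18423 TPM without LPS and 9448 to 11544 TPM with LPS. All 14 listed markers of fibroblasts, T cells, B cells and epithelium stayed below 1 TPM. Among 3 endothelial markers Pecam1 reached 1.05 TPM at most, and their summed level was 0.573 to 0.918 TPM without LPS and 1.11 to 2.28 TPM with LPS. Both sums moved with LPS, and their part in the results below was not tested. In bulk RNA fewer cells of a type and less RNA per cell cannot be told apart. The targeted transcript Ccdc88a was at 10.0 and 7.69 TPM in control cells without LPS and at 6.93, 5.31 and 5.58 TPM in depleted cells. With LPS it was at 5.77 TPM in control cells and at 3.08, 2.62 and 3.39 TPM in depleted cells. Its log2 difference was -0.50 ± 0.15 (SE, limma adjusted p = 0.232) without LPS and -0.75 ± 0.19 (adjusted p = 0.0681) with LPS, so neither passed over all genes. The library shown apart gave 7.80% of its TPM to protein-coding genes, against 73.9% to 81.5% in the others, and 57.8% to Mir6236, against 3.79% to 8.78%.

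**Figure D1:**
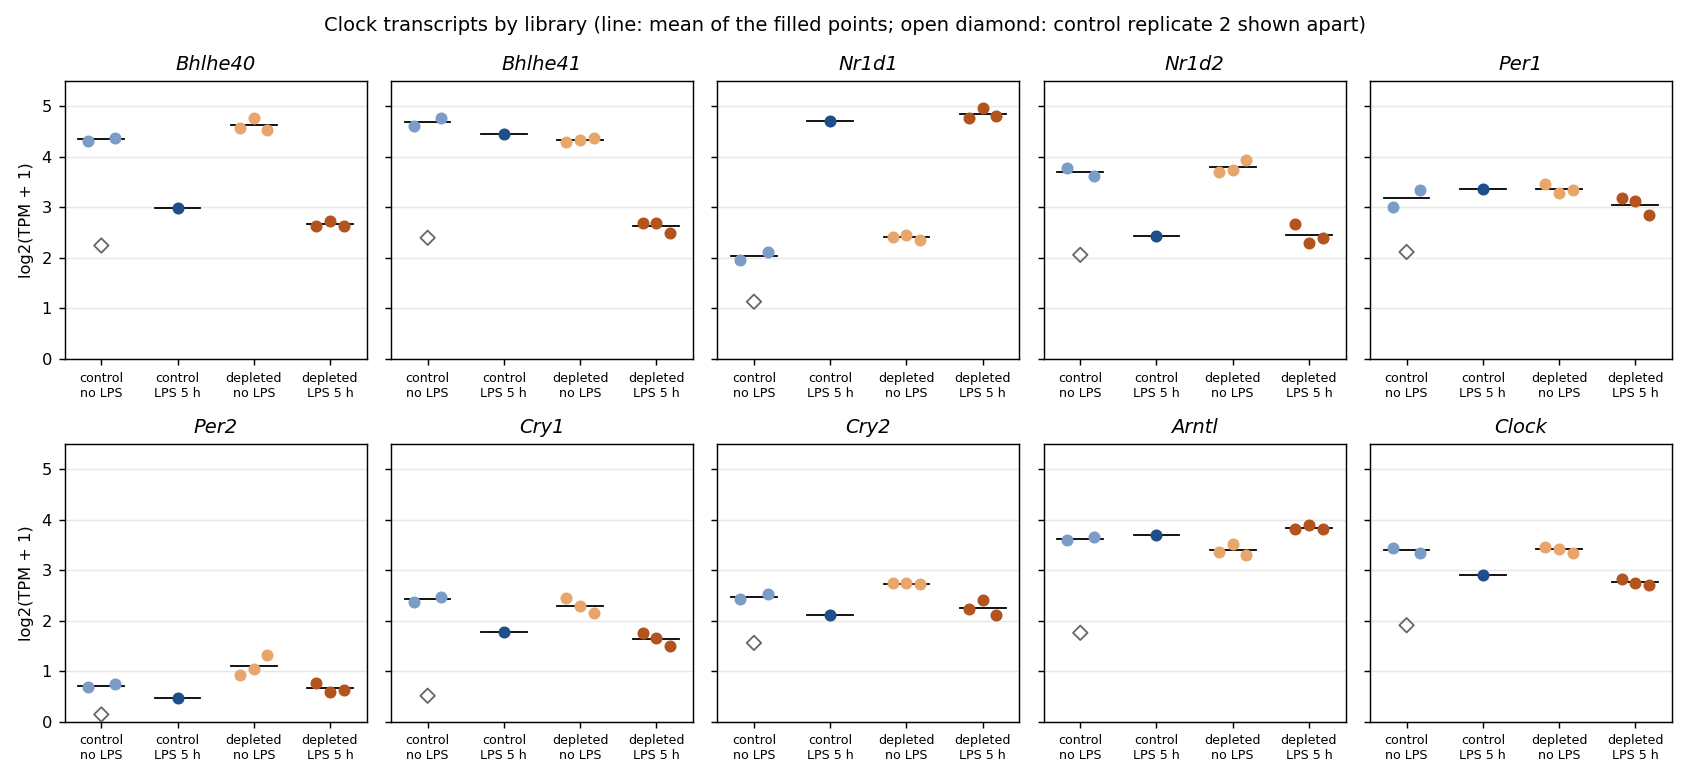
Level of each clock transcript as log2(TPM + 1) on the vertical axis, by line and treatment; points are libraries, lines are means of the filled points and open diamonds are the control library shown apart. Nr1d1 stood near 2 without LPS and near 5 with LPS in both lines, and Bhlhe41 stood low in the 3 depleted libraries with LPS.

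At rest the DEC transcripts were the most abundant of the 10 and Per2 was the least. In control cells without LPS the order by mean was Bhlhe41 (25.0 TPM), Bhlhe40 (19.3), Nr1d2 (12.0), Arntl (11.3), Clock (9.53), Per1 (8.12), Cry2 (4.57), Cry1 (4.37), Nr1d1 (3.11) and Per2 (0.641). The libraries overlapped between Nr1d2 and Arntl and between Cry2 and Cry1, and between no other neighbours. In depleted cells without LPS Bhlhe40 (23.7 TPM) led Bhlhe41 (19.1), and Clock, Arntl and Per1 (9.63, 9.50 and 9.34) overlapped with their neighbours, as did Nr1d1 (4.31) with Cry1 (3.93). With LPS Nr1d1 headed the order in both lines, with 25.3 TPM in control cells and 28.0 ± 2.17 TPM (SD, n = 3) in depleted cells. The second place differed between the lines. It was held by Bhlhe41 (20.9 TPM) in control cells and by Arntl (13.3 TPM) in depleted cells, where Clock, Bhlhe40, Bhlhe41, Nr1d2 and Cry2 followed Per1 with overlapping neighbours between 5.77 and 3.78 TPM.

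Of the 10 genes 1 was called higher with LPS in control cells (Nr1d1) and 4 lower (Bhlhe40, Nr1d2, Cry1 and Clock), at a limma adjusted p under 0.05 over all genes tested. Among all 13711 genes tested, 58.9% were called, 14.8% higher and 44.1% lower, so the share called among the 10 is near the background. In depleted cells 2 were called higher (Nr1d1 and Arntl) and 8 lower, while 75.5% of all genes were called, 15.8% higher and 59.7% lower. The median log2 change of the 10 was -0.30 in control cells and -0.57 in depleted cells, and that of all genes tested was -0.40 and -0.54. Scaling by the trimmed mean (TMM) moved the median of all genes up by 0.39 and 0.50, so small falls turn on the scaling. The split of the 10 then became 3 higher and 2 lower in control cells and 2 higher and 3 lower in depleted cells, and that of all called genes became 3608 to 3599 and 4434 to 4770, from 2025 to 6050 and 2161 to 8188. With quantile normalization the 10 split 3 to 2 and 3 to 3, and all called genes 2980 to 4357 and 3748 to 5586. Rescaling to totals free of mitochondrial genes and the top 100 genes did not turn the split in this way. The 10 then split 1 to 6 and 2 to 6, and all called genes 2010 to 6571 and 2444 to 7715. All 10 passed the filter on low values, but Per2 passed through 2 depleted libraries without LPS alone. Where groups are said below not to overlap, the share of all genes without overlap was not counted. In control cells such a statement sets a single library with LPS against 2 without. With the library shown apart included, 1 of the 10 was called in control cells (Nr1d1) and 2 in depleted cells (Nr1d1 and Bhlhe40).

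**Figure D2:**
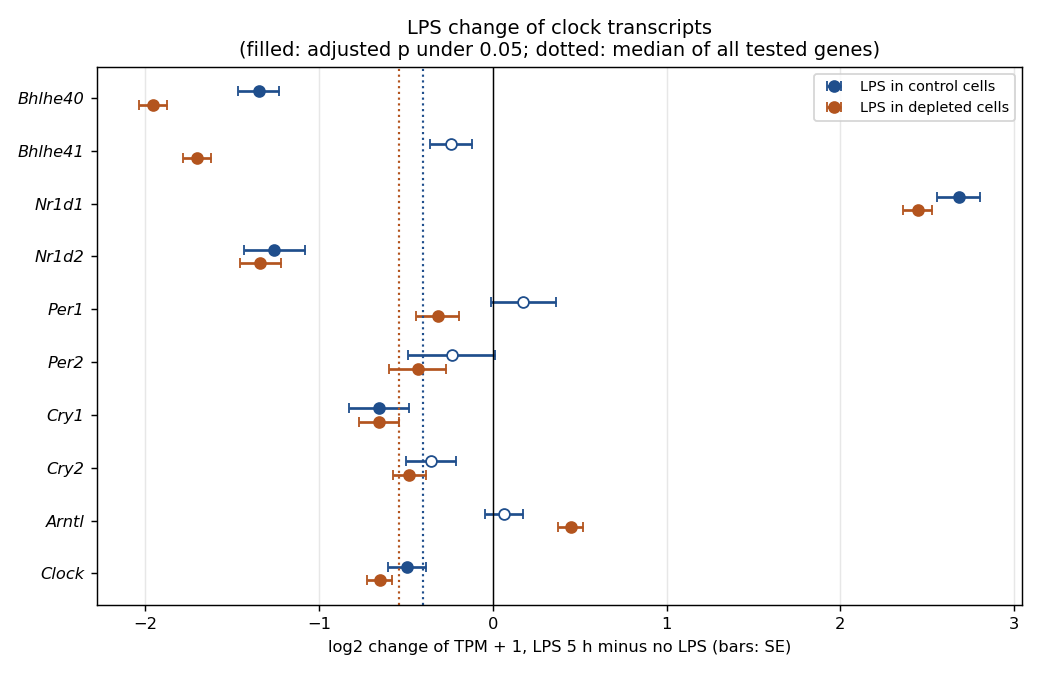
Fitted log2 change of TPM + 1 with LPS (horizontal axis, bars are SE) for each clock transcript in control and depleted cells; filled points have an adjusted p under 0.05 and dotted lines are the medians of all tested genes (-0.40 and -0.54). Nr1d1 lies at 2.68 and 2.45, while Bhlhe41 is the gene whose points for the lines lie farthest apart (-0.24 and -1.71); Per1, Cry2 and Clock change sign under another scaling in 1 or both lines, as does Bhlhe41 in control cells.

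The activators moved apart from each other. Arntl (ENSMUSG00000055116, GRCm38 chromosome 7, 113207465 to 113314126, plus strand), which encodes a partner of CLOCK at E-boxes, was at 11.0 and 11.6 TPM in control cells without LPS and at 11.9 TPM with LPS. In depleted cells it was at 9.29, 10.4 and 8.85 TPM without LPS and at 13.1, 13.8 and 13.0 TPM with LPS, so the depleted groups did not overlap. It rose by 0.45 ± 0.07 (SE, limma adjusted p = 7.07e-04) on the log2 scale in depleted cells, and its change in control cells was 0.06 ± 0.11 (adjusted p = 0.644). The difference between these responses, 0.38 ± 0.13, did not pass (adjusted p = 0.207). Over 4 scalings the rise in depleted cells was 0.45 to 1.06, and the change in control cells was 0.03 to 0.53 and was called under 2 of the 4.

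Clock (ENSMUSG00000029238, chromosome 5, 76209868 to 76304792, minus strand), the partner of ARNTL, was at 9.90 and 9.17 TPM in control cells without LPS and at 6.47 TPM with LPS. The depleted libraries held 10.0, 9.74 and 9.12 TPM without LPS and at 6.10, 5.69 and 5.51 TPM with LPS. The groups did not overlap in either line. The processed pseudogene Ube2n-ps1 overlaps the annotated span of Clock by 459 bases on the same strand, at 88.6 to 115 TPM. Gm43658 overlaps that span by 4176 bases on the same strand and was not analysed here. Whether Clock shares reads with either was not tested. The log2 changes of -0.50 ± 0.11 (limma adjusted p = 0.00559) and -0.65 ± 0.07 (adjusted p = 7.65e-05) lay 0.09 and 0.11 below the median of all genes, and with quantile normalization they were 0.05 and 0.03. Neither change was called with quantile normalization or with TMM scaling (-0.10 and -0.11). The call in control cells was also lost with only the groups compared. The Arntl to Clock ratio of TPM within a library, which a scaling factor for each library leaves as it is, was 1.12 and 1.27 in control cells and 0.926 to 1.06 in depleted cells without LPS. With LPS it was 1.84 in the control library and 2.15 to 2.42 in depleted cells, above every library without LPS.

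Of the Per and Cry repressors, the direct arm of the loop, Cry1 was called lower in both lines, and Per1, Per2 and Cry2 in depleted cells. Per1 (ENSMUSG00000020893, chromosome 11, 69095217 to 69109960, plus strand), a PER protein gene that also answers quickly to outside signals, was at 7.10 and 9.15 TPM in control cells without LPS and at 9.24 TPM with LPS. Depleted libraries were at 10.1, 8.77 and 9.17 TPM without LPS and at 8.13, 7.69 and 6.17 TPM with LPS, which did not overlap. Its change was 0.18 ± 0.19 (limma adjusted p = 0.446) in control cells and -0.32 ± 0.12 (adjusted p = 0.0474) in depleted cells, where it turned to 0.23 with TMM scaling and 0.35 with quantile normalization. In control cells those scalings gave 0.58 (adjusted p = 0.0133) and 0.69 (adjusted p = 0.00585), so Per1 was then called higher. The call in depleted cells was also lost with rescaling (-0.23, adjusted p = 0.0965), with the set number as a block (adjusted p = 0.0875) and when any of the 3 depleted libraries without LPS, or depleted replicate 2 or 3 with LPS, was left out, with log2 changes of -0.36 to -0.21.

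Per2 (ENSMUSG00000055866, chromosome 1, 91415982 to 91459324, minus strand), another PER protein gene, lay near the lower limit of the table. It was at 0.599 and 0.682 TPM in control cells without LPS and 0.391 TPM with LPS, against 0.886, 1.07 and 1.49 TPM and 0.710, 0.501 and 0.538 TPM in depleted cells. The depleted libraries without LPS were thus the highest, and it was through them that the gene passed the filter, so its call there is no support for a fall. TMM scaling gave a change of -0.17 (limma adjusted p = 0.384), quantile normalization -0.22 (adjusted p = 0.259) and rescaling -0.50 (adjusted p = 0.0575), and none of these was called. With the set number as a block the adjusted p was 0.0764. The reported call, -0.43 ± 0.17 (limma adjusted p = 0.0432), was lost without depleted replicate 2 (-0.40, adjusted p = 0.104) or 3 (-0.41, adjusted p = 0.0977) with LPS. It was also lost without control replicate 1 (adjusted p = 0.0514) or 3 (adjusted p = 0.0504), both at an unchanged -0.43. Without depleted replicate 2 or 3 at rest it was no longer tested.

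Cry1 (ENSMUSG00000020038, chromosome 10, 85131700 to 85185064, minus strand), a cryptochrome gene whose protein is a strong repressor of ARNTL and CLOCK, was at 4.17 and 4.56 TPM in control cells without LPS and at 2.40 TPM with LPS. In depleted cells it was at 4.43, 3.89 and 3.46 TPM without LPS and at 2.39, 2.16 and 1.84 TPM with LPS. The groups did not overlap, and the changes were alike in size, at -0.66 ± 0.17 (limma adjusted p = 0.0126) and -0.65 ± 0.12 (adjusted p = 0.00106). They lay 0.26 and 0.11 below the median of all genes, and were -0.31 and -0.21 with TMM scaling, where neither was called. Cry2 (ENSMUSG00000068742, chromosome 2, 92403646 to 92434043, minus strand), the other cryptochrome gene, was at 4.36 and 4.78 TPM and then 3.35 TPM in control cells. It was at 5.68, 5.67 and 5.59 TPM and then 3.72, 4.30 and 3.32 TPM in depleted cells. Its changes of -0.36 ± 0.14 (adjusted p = 0.0667) and -0.48 ± 0.10 (adjusted p = 0.00219) turned to 0.18 and 0.17 with quantile normalization. D930015M05Rik, on the other strand inside Cry2, stayed between 0.212 and 0.514 TPM. The Cry2 to Cry1 ratio within a library was 1.04 and 1.05 in control cells without LPS and 1.39 with it, against 1.28 to 1.61 and 1.56 to 1.99 in depleted cells, where the ranges overlapped. Per1 to Per2 was 11.8 and 13.4 and then 23.6 in control cells, and 6.14 to 11.4 and then 11.4 to 15.3 in depleted cells. Per2 lay near the lower limit of the table, at 0.391 TPM in the single control library with LPS, so these ratios are imprecise.

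The REV-ERB pair moved in opposite directions, and this was the largest LPS response among the 10. Nr1d1 (ENSMUSG00000020889, chromosome 11, 98767932 to 98775333, minus strand), which encodes REV-ERB alpha, a repressor of Arntl, stood at 2.87 and 3.35 TPM in control cells without LPS and 25.3 TPM with it. The depleted libraries were at 4.35, 4.48 and 4.11 TPM without LPS and at 26.4, 30.5 and 27.1 TPM with LPS. Every library with LPS lay far above every library without. The gene rose by 2.68 ± 0.12 (limma adjusted p = 1.90e-06) in control cells and by 2.45 ± 0.08 (adjusted p = 1.09e-07) in depleted cells, which is 3.08 and 2.99 above the median of all genes. The difference between the lines in this response did not pass (-0.24 ± 0.15, adjusted p = 0.454). Thra, the thyroid hormone receptor gene, overlaps the 3′ end of Nr1d1 by 1075 bases on the other strand, and use of strand in the counting is not given in the sources used here. Thra was at 4.83 and 5.76 TPM and then 4.65 TPM in control cells, and at 4.67 to 5.68 TPM and then 5.49 to 6.64 TPM in depleted cells.

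Nr1d2 (ENSMUSG00000021775, chromosome 14, 18204054 to 18239127, minus strand), which encodes REV-ERB beta, was at 12.7 and 11.4 TPM in control cells without LPS and at 4.43 TPM with LPS. Its depleted libraries were at 12.0, 12.3 and 14.3 TPM without LPS and at 5.36, 3.90 and 4.27 TPM with LPS. It fell by 1.26 ± 0.18 (limma adjusted p = 5.50e-04) and by 1.34 ± 0.12 (adjusted p = 1.86e-05) on the log2 scale, with no overlap of groups in either line, and the changes were -1.36 to -0.71 and -1.34 to -0.67 over 4 scalings. Within a library the ratio of Nr1d1 to Nr1d2 in TPM was 0.227 and 0.295 in control cells and 0.287 to 0.364 in depleted cells without LPS. With LPS it was 5.71 in the control library and 4.93 to 7.82 in depleted cells, so the REV-ERB transcript in excess changed from beta to alpha in both lines.

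**Figure D3:**
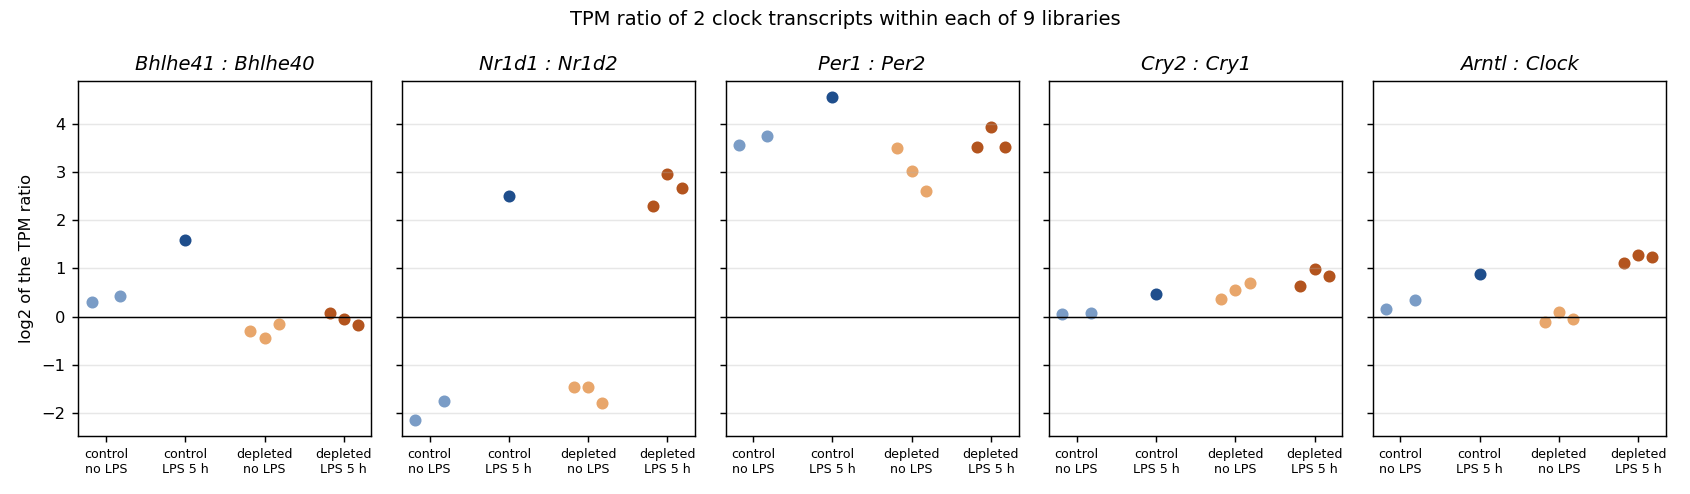
Ratio of TPM of 2 clock transcripts within each of 9 libraries, on a log2 vertical axis, by line and treatment (points are libraries). Nr1d1 to Nr1d2 crossed 1 (0 on this axis) with LPS in both lines, and Bhlhe41 to Bhlhe40 stood at 2.997 in the control library with LPS against 0.880 to 1.06 in the depleted ones.

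In the DEC pair Bhlhe40 fell with LPS in both lines, and Bhlhe41 was the member called between the lines. Bhlhe40 (ENSMUSG00000030103, chromosome 6, 108660629 to 108666925, plus strand), which encodes the E-box repressor DEC1, was at 19.0 and 19.6 TPM in control cells without LPS and at 6.98 TPM with LPS. In depleted cells it was at 22.9, 26.2 and 22.0 TPM without LPS and at 5.17, 5.67 and 5.23 TPM with LPS. It fell by 1.35 ± 0.12 (limma adjusted p = 4.91e-05) in control cells and by 1.95 ± 0.08 (adjusted p = 2.84e-07) in depleted cells, with no overlap of groups, and the changes were -1.43 to -0.87 and -1.95 to -1.34 over 4 scalings. The difference between the responses was -0.61 ± 0.14 and did not pass (adjusted p = 0.115).

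Bhlhe41 (ENSMUSG00000030256, chromosome 6, 145858243 to 145865558, minus strand), which encodes the related repressor DEC2, kept most of its level with LPS in control cells and lost most of it in depleted cells. Control libraries without LPS held 23.6 and 26.3 TPM, and the one with LPS held 20.9 TPM. In depleted cells it was at 18.5, 19.1 and 19.6 TPM without LPS and at 5.47, 5.45 and 4.60 TPM with LPS. The 3 depleted libraries with LPS were the lowest of the 9 by a wide gap, and the depleted groups did not overlap. The log2 change was -0.24 ± 0.12 (limma adjusted p = 0.123) in control cells, or 0.19 with TMM scaling and 0.08 after quantile normalization. Rescaling gave -0.29 there, which was called (adjusted p = 0.0367). In depleted cells the change was -1.71 ± 0.08 (adjusted p = 6.29e-07). Gm43909, annotated on the other strand over 1876 bases of Bhlhe41, was not analysed here.

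With LPS, Bhlhe41 was lower in depleted than in control cells by a log2 difference of -1.83 ± 0.11 (limma adjusted p = 6.82e-04), and it was the 1 member called in that comparison, where 5.27% of all genes were called (0.89% higher and 4.38% lower). It was also the 1 member called for the difference of the LPS responses, at -1.46 ± 0.15 (adjusted p = 0.0269), a call made for 0.226% of genes (0.0948% higher and 0.131% lower). These values are -1.72 and -1.32 relative to the median of all genes, which TMM scaling moved up by 0.13 and 0.14. Over all genes the split of higher to lower calls was 122 to 600 and 13 to 18, and with TMM scaling it was 309 to 329 and 45 to 31. Over 4 scalings these values were -1.83 to -1.57 and -1.46 to -1.15, and both calls were made under each scaling. The control side with LPS is a single library, assumed to vary like the other groups. Within set 2, the set that holds it, Bhlhe41 was at 20.9 TPM in control cells and 5.45 TPM in depleted cells.

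The size of the Bhlhe41 difference between responses was steadier than its call. The call was lost without control replicate 1 at rest (-1.39, limma adjusted p = 0.0565), without depleted replicate 1, 2 or 3 at rest (-1.48, -1.46 and -1.45, adjusted p = 0.0612, 0.104 and 0.0807) and without depleted replicate 1 or 2 with LPS (-1.50 and -1.50, adjusted p = 0.0658 and 0.0624). It held without control replicate 3 at rest (-1.54, adjusted p = 0.033) and without depleted replicate 3 with LPS (-1.40, adjusted p = 0.0403). With the set number as a block it was -1.41 (adjusted p = 0.221), and with the library shown apart included it was -2.23 (adjusted p = 0.715). The lower level of Bhlhe41 with LPS was called without each of these 8 libraries in turn (-1.87 to -1.76, adjusted p = 0.00255 to 0.00628). That call was lost with the library shown apart included (-1.83, adjusted p = 1) and with only sets 2 and 3 (-1.87, adjusted p = 0.0507).

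**Figure D4:**
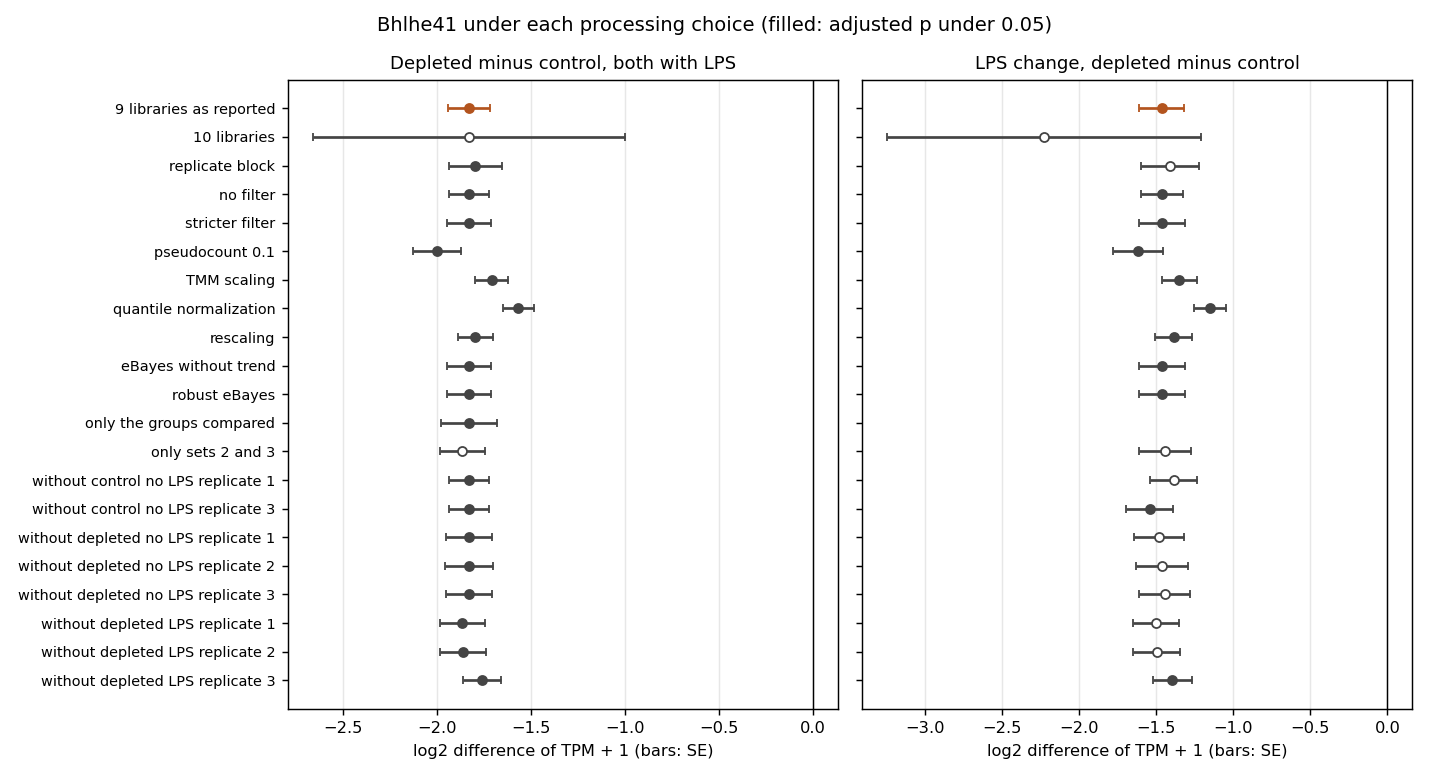
Bhlhe41 under each processing choice: log2 difference of TPM + 1 on the horizontal axis (points, bars are SE; filled where the adjusted p is under 0.05), with depleted minus control cells under LPS at the left and the difference of the LPS responses at the right. All values are negative in both panels, with -1.83 and -1.46 as reported, and more of the points at the right are open.

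Without LPS the log2 differences between the lines ran from -0.37 to 0.38 over the 10 genes. None of the 10 genes was called by limma between depleted and control cells at rest, where 1.22% of all genes were called (0.489% higher and 0.729% lower), and 5 of the 10 had an unadjusted p under 0.05, as did 12.2% of all genes. The log2 differences were 0.37 ± 0.09 for Nr1d1 (adjusted p = 0.144) and -0.37 ± 0.09 for Bhlhe41 (adjusted p = 0.141). Over 4 scalings that of Bhlhe41 was -0.42 to -0.36, and it was called under 2 of them. Per2 gave 0.38 ± 0.19 (adjusted p = 0.463), but it was through the depleted libraries at rest that it came to be tested. The resting libraries of the lines did not overlap for Nr1d1 (2.87 and 3.35 against 4.11 to 4.48 TPM), for Bhlhe41 (23.6 and 26.3 against 18.5 to 19.6 TPM) or for Bhlhe40 (19.0 and 19.6 against 22.0 to 26.2 TPM). They did not overlap for Arntl, Cry2 or Per2 either, with Arntl lower and Cry2 and Per2 higher in depleted cells. The share of all genes without overlap at rest was not counted, so these statements describe the libraries alone. With the library shown apart included, the differences of Bhlhe41 and Arntl were 0.40 and 0.39. The ratio of Bhlhe41 to Bhlhe40 was accordingly 1.24 and 1.34 in control cells and 0.731 to 0.893 in depleted cells before any LPS. With LPS it was 2.997 in the control library and 0.880 to 1.06 in depleted cells.

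With LPS the other 9 genes did not pass between the lines. Their log2 differences, depleted minus control, ranged from -0.33 ± 0.11 for Bhlhe40 (limma adjusted p = 0.141) to 0.18 ± 0.23 for Per2 (adjusted p = 0.703). Those of Nr1d1 and Nr1d2 were 0.14 ± 0.12 and 0.01 ± 0.17. For the difference of the responses they ranged from -0.61 for Bhlhe40 to 0.38 for Arntl, with Per1 at -0.49 ± 0.22 (adjusted p = 0.315). The 2 comparisons of lines and the difference share libraries, so these values are not independent of each other.

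The control library shown apart had the lowest level of all 10 genes among control libraries without LPS, at 3.74 TPM of Bhlhe40, 4.27 of Bhlhe41, 1.19 of Nr1d1, 3.17 of Nr1d2, 3.34 of Per1 and 2.39 of Arntl. It was at 2.76 TPM of Clock, 1.95 of Cry2, 0.428 of Cry1 and 0.105 of Per2. Rescaled so that protein-coding genes alone make up the TPM total, the same library lay above both other control libraries for 9 of the 10 genes and below both for Cry1. Nr1d1 was then at 15.3 against 3.82 and 4.23, and Bhlhe41 at 54.7 against 31.4 and 33.3.

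Beyond the 10 genes, a list of 26 other clock genes was examined, of which 20 passed the filter. With LPS 2 rose and 10 fell in control cells, where 58.9% of all genes were called, and 2 rose and 12 fell in depleted cells, where 75.5% were, with medians of -0.38 and -0.57 beside -0.40 and -0.54 for all genes. Among the 20 genes the largest change in depleted cells was that of Dbp. This activator of D-box sites, an output arm of the clock, is under direct control of ARNTL and CLOCK. It was at 7.83 and 11.3 TPM in control cells without LPS and at 1.87 TPM with LPS. In depleted cells it was at 15.0, 16.5 and 14.4 TPM and then at 0.831, 1.27 and 1.49 TPM. Its log2 changes were -1.86 ± 0.24 (limma adjusted p = 3.31e-04) and -2.90 ± 0.16 (adjusted p = 1.32e-06), and the difference between them did not pass (-1.04, adjusted p = 0.146). Tef, a related D-box activator, fell by 1.39 and 1.76 on the log2 scale, and the D-box repressor Nfil3 rose by 1.29 and 1.66. Nfil3 was at 5.47 and 6.05 TPM and then 15.5 TPM in control cells, and at 5.31 to 5.72 TPM and then 18.1 to 20.6 TPM in depleted cells.

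Of the remaining listed genes, Per3, a further PER gene, was called lower in both lines (-1.30 and -1.28), and Nampt, an enzyme of NAD synthesis whose product ties the clock to metabolism, higher in both (1.54 and 1.40). Per3 fell from 2.11 and 2.08 TPM to 0.261 TPM in control cells and from 1.94 to 2.36 TPM to 0.273 to 0.365 TPM in depleted cells. It reached the filter only without LPS, so its call is no support for a fall. Usp2, a ubiquitin protease that acts on clock proteins, fell by 1.45 on the log2 scale in depleted cells, and by 0.56 in control cells (limma adjusted p = 0.041), where the change was 0.02 under another scaling. It was the 1 listed gene called between the lines with LPS, at 5.33 TPM in the control library against 1.88, 2.83 and 3.06 TPM (-0.83 ± 0.19, adjusted p = 0.0478). That call was lost under 17 of 20 alternatives, and adjusted p over the 20 was 0.0309 to 1. It was lost without each other library in turn except depleted replicate 1 with LPS (-0.68, adjusted p = 0.0309). Where it was lost in this way, the log2 differences were -0.93 to -0.83. Nfil3 was not called between the lines with LPS in the reported fit (0.31, limma adjusted p = 0.144). Over 4 scalings its log2 difference was 0.31 to 0.47, and it was called under 3 of them, against 1 for Usp2. Neither the resting lines nor the difference of the responses had a call among the 20 genes (2 and 5 at an unadjusted p under 0.05, beside 12.2% and 17.3% of all genes). Rora and Rorb, activators that oppose REV-ERB, were near 0 in all 9 libraries, at most 0.155 TPM and 0.0143 TPM. Npas2, which can stand in for CLOCK, reached 0.0771 TPM, Fbxl21 reached 0.0756 TPM, and Hlf was listed at 0 in all 9.

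**Figure D5:**
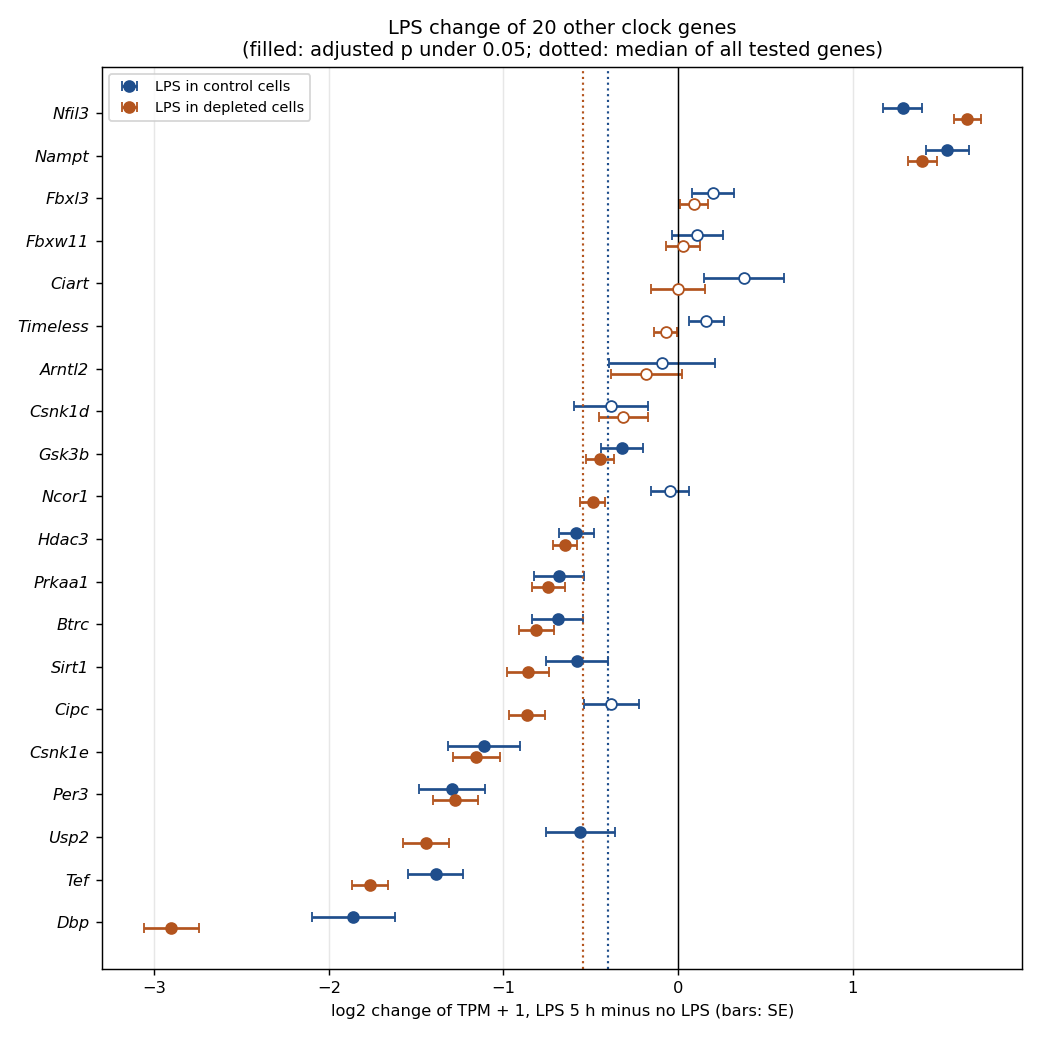
Fitted log2 change of TPM + 1 with LPS (horizontal axis, bars are SE) of the 20 other clock genes that passed the filter, in control and depleted cells; filled points have an adjusted p under 0.05 and dotted lines are medians of all tested genes. Nfil3 and Nampt lie to the right of 1 in both lines, and Dbp is the lowest, at -1.86 and -2.90.

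The 3 members with the widest range over the 9 libraries were Nr1d1 (3.02 log2 units), Bhlhe41 (2.29) and Bhlhe40 (2.14). Among 13313 tested genes with an unshared symbol, the profiles nearest to each were found by the root-mean-square difference of centred log2 values over these 9 libraries. Nearest to Nr1d1 were Ifi35 (0.113), Bcl2a1b (0.119) and Enpp4 (0.126), of which Ifi35 went from a mean of 41.7 to 292 TPM in control cells and from 48.1 to 307 TPM in depleted cells. Nearest to Bhlhe41 were Gpnmb (0.129), Gpr137b (0.176) and Gm14288 (0.179). Gpnmb, a membrane glycoprotein gene of macrophages, was at means of 2303 and 1514 TPM without and with LPS in control cells and of 1595 and 529.5 TPM in depleted cells. Nearest to Bhlhe40 were Slc29a1 (0.0670), Tmem97 (0.0832) and Smarcd2 (0.0836).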

How the data were processed

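Total RNA of RAW cells was sequenced in paired reads with a stranded kit, per the labels' protocols. The authors deposited log2(TPM + 1) per gene. Per the submitters' processing notes, kallisto 0.45.0 and the build GRCm38 were used. The annotation release, use of strand and any summing over transcripts are not given in the sources used here. The labels list 11 samples, and 10 had a column. Groups came from the sample titles. TPM keeps no read total, so depth and counting precision are unknown.

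Limma (3.58.1, R 4.3.3) fitted the 4 groups with a mean-variance trend in 9 libraries, leaving out control replicate 2 at rest. A gene was tested if 2 or more libraries reached 1 on the log2(TPM + 1) scale (13711 genes, 5 residual degrees of freedom). Log2 changes are of TPM + 1 and understate changes of low genes. P-values were adjusted by Benjamini-Hochberg over all genes in each of 5 comparisons (threshold 0.05). Members, lists and tests were chosen with earlier results of these data known. Named genes are the 10 members, Ccdc88a, genes overlapping a member, listed clock genes called between lines or among the 5 largest called changes with LPS, and the 3 nearest profiles of the 3 members with the widest range. Of the overlapping genes, 0610040F04Rik (at Bhlhe40) and Gm45355 (at Arntl) were at 0 TPM in all 9 libraries. Alternatives used all 10 libraries, a block for the set number, no filter or one at log2 of 3, 0.1 as pseudocount, TMM factors from TPM (30% and 5% trims), quantiles, totals free of mitochondrial genes and the top 100 genes, eBayes robust or without trend, the compared groups alone, sets 2 and 3 alone, or dropped 1 library. Positions are from GENCODE M21 and promoter sequences from RefSeq. One listed clock gene is not reported here. The fit was tested on simulated data with known changes in 200 of 13711 genes. Far more genes were called with LPS here, so recovery in the LPS comparisons may differ. Of known log2 changes of 1, the fit recovered from 32% (difference of the responses) to 78.5% (LPS in depleted cells). Of its calls, 2.59% (LPS in control cells) to 7.25% (difference of the responses) were wrong. A gene that did not pass may therefore still differ. Tables and figures used Python 3.11.15, numpy 2.4.6, pandas 2.3.3 and matplotlib 3.10.9.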

Additional observations from a re-analysis of the deposited data

Results flagged for a closer look

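Bhlhe41 is listed here because its LPS response differed between the lines by the test of that difference, at -1.46 on the log2 scale (limma adjusted p = 0.0269 over 13711 genes), with control cells with LPS held by a single library. Each of the 3 depleted libraries with LPS lay below that library, at 5.47, 5.45 and 4.60 against 20.9 TPM. Gpnmb, the gene with the nearest profile, had means of 2303 and 1514 TPM in control cells and of 1595 and 529.5 TPM in depleted cells, without and with LPS.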

How the results depend on the processing

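The number of the 10 genes called moved as follows. With 10 libraries the LPS response gave 1 in control and 2 in depleted cells, and depletion with LPS and the difference of the responses gave 0. For LPS in control cells it was 3 with only the groups compared, and for LPS in depleted cells 5 with TMM scaling and 6 with quantile normalization. Without LPS 1 gene (Bhlhe41) was called with quantile normalization and 1 with rescaling. With only sets 2 and 3 it was 0 for depletion with LPS and 0 for the difference. With the replicate block it was 0 for the difference. Leaving out 1 library gave 5 to 6, 8 to 10, 0, 1 and 0 to 1 in the order of the comparisons.

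Same-numbered libraries of the depleted groups had correlated deviations of 0.0617, 0.0715 and 0.097. Between the resting lines the values were 0.0972 (set 1) and 0.0672 (set 3). Between resting control and depleted LPS libraries they were 0.0361 (set 1) and -0.0013 (set 3). Each depleted library correlated best with its own number in the other depleted group. These values are small and do not settle whether the sets were paired. The reported fit leaves the set number out. The block gave 7068, 10370, 58, 83 and 0 calls over the whole table, against 8075, 10349, 167, 722 and 31. With 10 libraries these were 481, 2236, 0, 0 and 0. Depletion without LPS had 309 calls with quantile normalization, 277 with rescaling, 47 with only the groups compared, 0 with sets 2 and 3, and 58 to 167 when leaving out 1 library. Depletion with LPS had 69 with only the groups compared, 0 with sets 2 and 3, and 325 to 953 leaving out 1 library. The difference had 360 with no filter, 73 with the stricter filter, 76 with TMM scaling, 64 with rescaling, 54 with robust eBayes, 1 with sets 2 and 3, and 0 to 21 leaving out 1 library.

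Some log2 values changed sign. The LPS response of control cells was 0.52 for Bhlhe41, 5e-04 for Clock and 0.40 for Thra with 10 libraries. With TMM scaling it was 0.19 for Bhlhe41, 0.0031 for Cry2 and 0.22 for Thra, and with quantile normalization 0.0822 for Bhlhe41, 0.1806 for Cry2, 0.0492 for Clock and 0.41 for Thra. With the block it was -0.0594 for Arntl. The response of depleted cells was 0.23 for Per1 and 0.0218 for Cry2 with TMM scaling, and 0.35 for Per1, 0.17 for Cry2 and 0.0267 for Clock with quantile normalization. Depletion without LPS was 0.40 for Bhlhe41, 0.51 for Cry1, 0.39 for Arntl and 0.22 for Ccdc88a with 10 libraries, -0.0264 for Per1 with sets 2 and 3, and -0.0212 for Clock with rescaling (-0.0368 to 0.0629 leaving out 1 library). Depletion with LPS was -0.0981 for Nr1d2 with the block and -0.097 with sets 2 and 3 (-0.097 to 0.0915 leaving out 1 library). The difference was -0.24 for Arntl and -0.64 for Cry1 with 10 libraries, and -0.021 for Cry1 with a pseudocount of 0.1 (-0.0677 to 0.0734 leaving out 1 library). It was 0.0187 for Cry2 and 0.0569 for Nr1d2 with TMM scaling, 0.0355 for Nr1d2 with quantile normalization, and 0.0023 for Cry2 and 0.0555 for Nr1d2 with rescaling (Nr1d2 -0.1883 to 2e-04 leaving out 1 library). The cause of these changes was not tested. Comparisons that need the lone control library with LPS have no value without it, and Per2, Cry1 and Cry2 were not tested under the stricter filter. Precision is limited by the number of libraries.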
